A study of Schizosaccharomyces pombe with 6 samples.

Results

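The 40S subunit of the ribosome binds mRNA, scans it for the start codon and reads each codon against tRNA. It is built from 1 ribosomal RNA and a set of small proteins, whose genes are named *rps* followed by the number of the protein. In *S. pombe* many of these proteins are made from more than 1 gene, and the last digits of a name such as *rps1401* or *rps1402* number the copy. Ribosomal protein mRNAs are among the most abundant in growing yeast, and their transcription is known to follow nutrients and stress through TOR signalling. Small subunit proteins are imported into the nucleolus, where the subunit is assembled before its export, and *rae1* encodes a conserved mRNA export factor.

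Signals of these genes were compared between *rae1-167* cells kept at 36°C for 1 h and *rae1-167* cells kept at 25°C, with 3 arrays at each temperature, 6 in all. All cells were of the 972 background, carried the temperature-sensitive *rae1-167* allele and grew in rich YE4S medium to early log phase, so the allele was shared by both groups. No wild type arrays were analysed here, and the response to the temperature itself and that to loss of Rae1 function cannot be told apart. Signals are linear intensities as the authors' software gave them, and all changes below are log2 values, 36°C minus 25°C. A gene was included where the annotation of an *S. pombe* probe set gave it as the only name and that name was *rps* with a protein number and, where present, a copy number. This rule found 45 of the 2919 features tested, where a feature is a gene or a group of genes named by 1 probe set. The 45 genes were measured by 46 probe sets, since *rps3002* had 2, and they stand for 27 proteins. For 10 proteins 1 gene was measured, for 16 proteins 2 copies, and for S4 all 3 copies. The RefSeq annotation lists 55 *rps* genes, of which 10 had no probe set named for them alone. All 45 genes were above background on all 6 arrays, background being the signal under which 90% of the array's *S. cerevisiae* probe sets lie (14 to 21.3).

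Over the whole arrays the median *S. pombe* signal was 1146 to 1579 on the 36°C arrays, against 1939 to 2617 on the 25°C arrays, and the median log2 change of all features was -0.66. The bacterial BioB spike-ins differed by 0.06 on the log2 scale (SD 0.06). Probe sets at the 5′ end read relatively lower against those at the 3′ end, a measure of RNA integrity, on all 36°C arrays than on any 25°C array for 3 of 7 control genes, and its part in the results was not tested. *rae1* itself had signals of 1634, 1497 and 1530 at 36°C, against 4299, 4477 and 4717 at 25°C. The allele is not a deletion, so this level does not check the labels.

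The small subunit genes lay close to the upper end of the signal scale at both temperatures. Their median signal was 12370, 12767 and 12505 on the 36°C arrays, against 13175, 13286 and 13153 on the 25°C arrays. The brightest probe set of any kind on an array read 18564, 19751 and 19066 at 36°C, against 19189, 19278 and 19507 at 25°C. The median small subunit gene was thus at 64.6% to 66.6% of the highest signal at 36°C and at 67.4% to 68.9% at 25°C. A signal above 10000 was reached on at least 1 array by 44 of the 45 genes and on all 6 arrays by 36, whereas 400 of all 2919 features (13.7%) reached it on at least 1 array. No small subunit gene exceeded 20000, and neither did any other probe set. *rps1401* was the only small subunit gene that stayed below 10000 throughout. Ranked among all features of an array, 36 of the 45 genes lay in the top 10% on every array. At 25°C their mean signals spanned only 1.71-fold from the lowest gene to the highest.

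**Figure D1:**
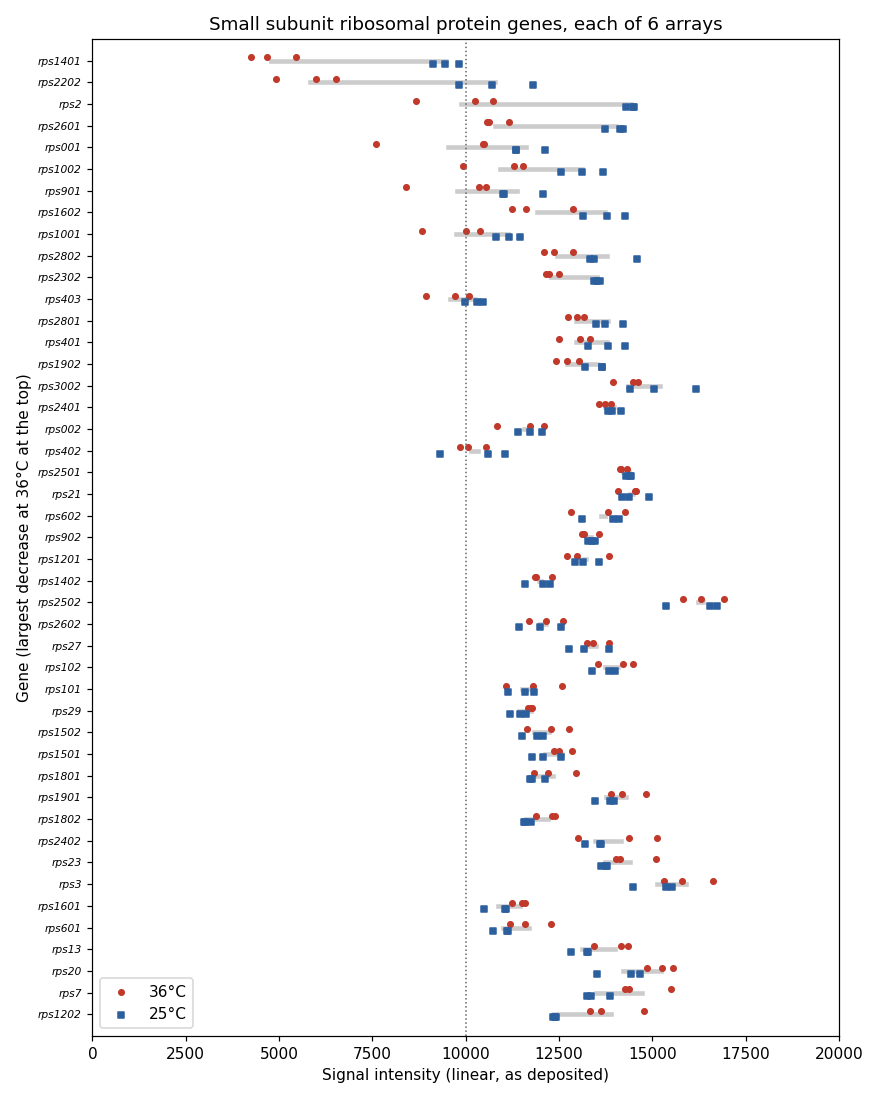
Signal intensity (horizontal, linear axis as deposited) of each of the 45 small subunit genes, 1 gene to a row, on the 3 arrays at 36°C (red circles) and the 3 at 25°C (blue squares), with a grey bar between the means of the temperatures and the largest decrease at the top. Most points lie above 10000 (dotted line) at both temperatures, while *rps1401* and *rps2202* at 36°C lie far to the left of their 25°C signals.

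The 3 genes with the highest mean signal were *rps2502*, *rps3* and *rps3002*. *rps2502* encodes S25, a protein of the head of the subunit known for its part in initiation at viral internal entry sites, and its signals were 15825, 16307 and 16923 at 36°C, against 15357, 16550 and 16735 at 25°C. *rps3* encodes S3, which lines the channel through which mRNA enters, and read 15312, 16621 and 15805 at 36°C, against 15357, 15521 and 14469 at 25°C. The ranges of the 2 temperatures overlapped for both genes, and their changes were 0.01 (SE 0.10, limma adjusted p = 0.93) and 0.07 (SE 0.10, limma adjusted p = 0.56). *rps3002*, one of the genes for S30, a small protein near the decoding site, read 14482, 14623 and 13945 at 36°C, against 15034, 14404 and 16172 at 25°C (change -0.08, SE 0.10, limma adjusted p = 0.52). The lowest mean signals were those of *rps1401*, *rps2202* and *rps403*. *rps403*, the third copy of S4, a protein of the body, read 8943, 10100 and 9713 at 36°C, against 10310, 10468 and 9989 at 25°C, with a change of -0.10 (SE 0.10, limma adjusted p = 0.44). Levels of different genes are given only to place them on the scale, since probe sets differ in how brightly they bind.

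On the deposited scale most small subunit genes did not change detectably in signal at 36°C, and 4 fell. By limma, with Benjamini-Hochberg adjustment over all 2919 features at 0.05, *rps1401*, *rps2202*, *rps2* and *rps2601* were lower, none was higher and 41 did not pass. None was higher at an unadjusted p under 0.05 either. The 4 genes are 8.89% of the 45, against 51.9% of all features called lower and 12.1% called higher. The median change of the 45 genes was -0.01, against -0.66 over all features. Each array measured the RNA of a whole culture, so fewer cells holding an mRNA and less of it in each cell cannot be told apart. The 3 arrays of a temperature come from independent experiments, but limma draws each gene's spread between arrays towards a prior variance shared by all features. The p-values therefore do not measure the spread of each gene alone. For *rps2501* the SE was 0.09, although its signals were 14132, 14318 and 14146 at 36°C, against 14394, 14285 and 14416 at 25°C. With the variance prior fitted to the signal level (limma's trend and robust options), 9 small subunit genes were lower and 2 were higher. After each array was centred on the median of its *S. pombe* features, none was lower and 41 were higher.

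*rps1401* (SPAC3H5.05C, chromosome I) encodes S14, which sits on the platform of the subunit beside the mRNA exit. Its signals were 4252, 5448 and 4680 at 36°C, against 9121, 9433 and 9819 at 25°C. Every 36°C array thus lay well below every 25°C array, and the geometric mean at 36°C was 50.4% of that at 25°C. The change was -0.99 (SE 0.13, 95% interval -1.30 to -0.67, limma adjusted p = 0.00076). Within replicate numbers 1, 2 and 3 the difference was -1.10, -0.79 and -1.07.

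*rps2202* (SPAC5D6.01, chromosome I) encodes a copy of S22, a protein of the body that binds the ribosomal RNA directly. It read 6537, 4919 and 5999 at 36°C, against 9823, 10709 and 11805 at 25°C. The temperatures did not overlap, and the geometric mean at 36°C was 53.8% of that at 25°C (change -0.90, SE 0.15, limma adjusted p = 0.0023). Within replicate numbers 1, 2 and 3 the difference was -0.59, -1.12 and -0.98. A second probe set names *rps2202* together with its copy *rps2201*, which had no probe set of its own. That shared probe set read 12311, 12591 and 12109 at 36°C, against 12535, 12347 and 12608 at 25°C, a log2 change of -0.02. The probe set named for *rps2202* alone and the shared one therefore gave different changes for S22 mRNA.

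*rps2* (SPCC576.08C, chromosome III) is the single gene for S2, which lies at the mRNA entry channel and takes part in the accuracy of decoding. Its signals were 8670, 10250 and 10725 at 36°C, against 14514, 14486 and 14286 at 25°C. All 36°C arrays were below all 25°C arrays, with a geometric mean at 68.2% of that at 25°C (change -0.55, SE 0.12, limma adjusted p = 0.0074). *rps2601* (SPAC806.03C, chromosome I) encodes S26, which contacts mRNA at the exit channel. It read 10578, 11157 and 10624 at 36°C, against 14122, 13722 and 14215 at 25°C, again without overlap. The geometric mean at 36°C was 76.9% of that at 25°C, and the change was -0.38 (SE 0.10, limma adjusted p = 0.014). Within replicate numbers 1, 2 and 3 the difference was -0.74, -0.50 and -0.41 for *rps2*. For *rps2601* it was -0.42, -0.30 and -0.42. The call of *rps2601* was lost without replicate 3 at 36°C (limma adjusted p = 0.054) and without replicate 2 at 25°C (limma adjusted p = 0.060).

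The direction of these changes depended in part on the scale. After quantile normalization, which brought the median change of all features to -0.02, the same 4 genes were called lower and no other was called. Centring each array on the median of its *S. pombe* features added 0.76 to every change. On that scale none of the 45 genes was lower and 41 were higher, *rps2* and *rps2601* had positive changes (0.21 and 0.38) that did not pass, and *rps1401* and *rps2202* kept negative changes (-0.22 and -0.13) that did not pass.

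The 41 genes that did not pass had changes between -0.30 and 0.17, of which 20 were negative and 21 positive. Their 95% intervals reached at the extremes -0.69 and 0.41, and for 38 of the 41 genes the interval lay within 0.5 on either side of 0. The standard errors of the 45 genes were 0.09 to 0.16, with a median of 0.10, against a median of 0.19 over all features. The lowest change among these genes was that of *rps001*, one of the genes for S0, which joins the subunit late in its assembly. It read 7598, 10502 and 10473 at 36°C, against 11348, 12126 and 11354 at 25°C, and the change of -0.30 (SE 0.16, limma adjusted p = 0.14) was -0.15 without replicate 1 at 36°C. *rps1002*, for S10 of the head, read 9937, 11545 and 11280 at 36°C, against 12554, 13103 and 13669 at 25°C (change -0.27, SE 0.11, limma adjusted p = 0.080). It passed when the replicate number was fitted as a block (limma adjusted p = 0.044). The largest positive change was 0.17 for *rps1202*, a copy of S12 (SE 0.10, limma adjusted p = 0.19), which read 13320, 14766 and 13620 at 36°C, against 12405, 12379 and 12344 at 25°C. *rps7*, the gene for S7 of the body, read 14256, 15504 and 14362 at 36°C, against 13257, 13366 and 13853 at 25°C (change 0.12, SE 0.10, limma adjusted p = 0.32). In both genes all 36°C arrays lay above all 25°C arrays, and these were the 2 that passed as higher with the fitted variance prior. Counted over all 45 genes, 13 (28.9%) had every 36°C array below every 25°C array, against 56.4% of all features. A further 9 (20%) had every 36°C array above every 25°C array, against 15% of all features.

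**Figure D2:**
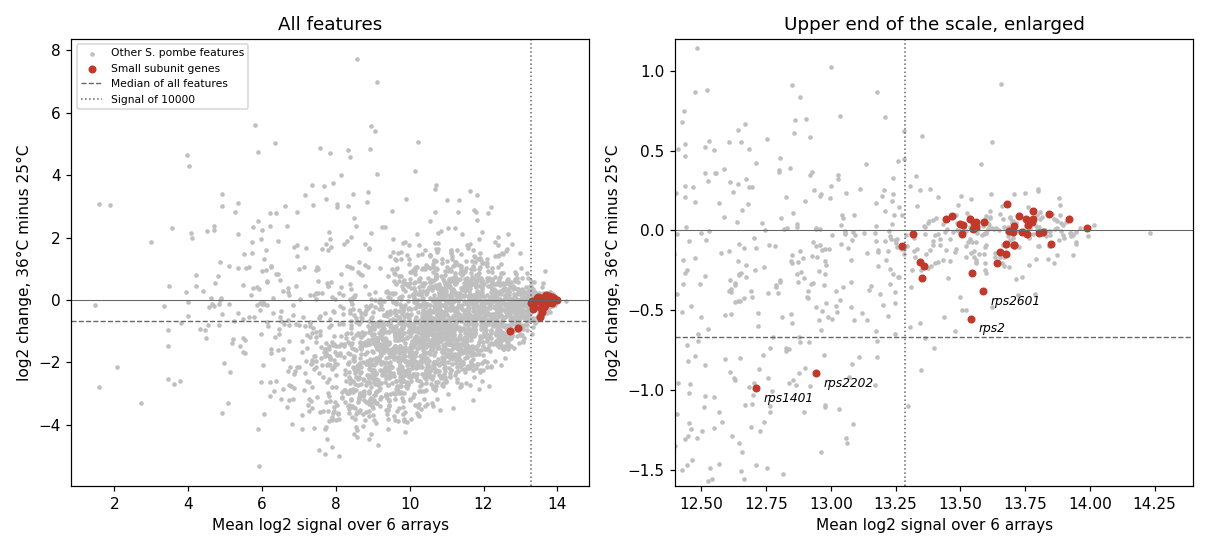
Log2 change, 36°C minus 25°C (vertical), against the mean log2 signal over the 6 arrays (horizontal) for all 2919 features on the left and for the upper end of the signal scale on the right, with small subunit genes in red. The spread of changes narrows above a signal of 10000 (dotted line), where 42 of the 45 red points lie, and the 4 labelled genes that fell lie below the other red points.

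Features of comparable brightness other than the small subunit genes with a probe set of their own also changed little. They still held probe sets naming several *rps* genes together, and large subunit ribosomal protein genes were not removed. Of those large subunit genes 66 of 67 exceeded 10000 on at least 1 array. The comparison is therefore not with unrelated proteins alone, and the part of these features in its values was not tested. Among the 212 other features with a mean signal above 10000 the median change was -0.02 and the interquartile range was -0.14 to 0.05. Of these features 7.55% were called lower and 2.83% higher. The 42 small subunit genes with a mean signal above 10000 had a median change of 0.00, and 2 of them (*rps2* and *rps2601*) fell. The remaining 3, *rps1401*, *rps2202* and *rps403*, had mean signals between 5000 and 10000, a band in which the 401 other features had a median change of -0.25, with 151 lower and 49 higher. Between 1000 and 5000 the median change of 1252 features was -0.70, and between 100 and 1000 that of 871 features was -1.61. Whether signals near the top of the scale still followed mRNA level in proportion was not tested, so a small change in signal there does not bound the change in mRNA.

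By position in the subunit, the 4 genes called lower above encode proteins of the body and of the platform. Over all features 51.9% were called lower and 12.1% higher. The head, which closes over the mRNA and holds the tRNAs, was represented by 19 genes for 11 proteins, and none of them passed. Their changes ran between -0.27 and 0.17 with a median of 0.04. The body, which carries the decoding centre and the mRNA entry channel, was represented by 17 genes for 11 proteins, of which *rps2202* and *rps2* fell and 15 did not pass (median change -0.02, highest 0.12). The platform and back, where mRNA leaves and where S0, S1, S14, S21 and S26 sit, were represented by 9 genes. Of these *rps1401* and *rps2601* fell and 7 did not pass, with a median change of -0.01 and a highest change of 0.04. No test compared the positions with each other, and the split depended on the fit. With limma's trend and robust options the head genes *rps1002*, *rps1602*, *rps1001* and *rps2802* were also called lower, and the head gene *rps1202* higher.

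Copies of a protein were compared through the log2 ratio of their signals within an array, first copy over second, which cancels any factor common to the array. It does not cancel a loss of proportion between signal and mRNA level near the top of the scale. Whether a brighter copy could show a fall as fully as a dimmer one was not tested. The measured genes gave 19 pairs of copies in 17 proteins. In 2 pairs (S14 and S26) 1 copy fell, in no pair did both fall, and in 17 pairs neither passed. The ratios of 9 pairs (47.4%) did not overlap between the temperatures, against 76.3% of all possible pairs of features. Most of those features were dimmer than the copies, and the changes of dimmer features were more widely spread. The share among pairs of features as bright as the copies was not computed. Whether copies stayed closer together than other pairs of their brightness was therefore not tested. With 3 arrays against 3 the smallest p that a two-sided exact permutation test can give is 0.10, which all 9 pairs reached, and adjusted over the 19 pairs it was 0.21. Paired by replicate number, an exact sign-flip permutation test gave p = 0.25 for each of the 9, the smallest it can give. The differences between copies are therefore given by their size and their values on each array.

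**Figure D3:**
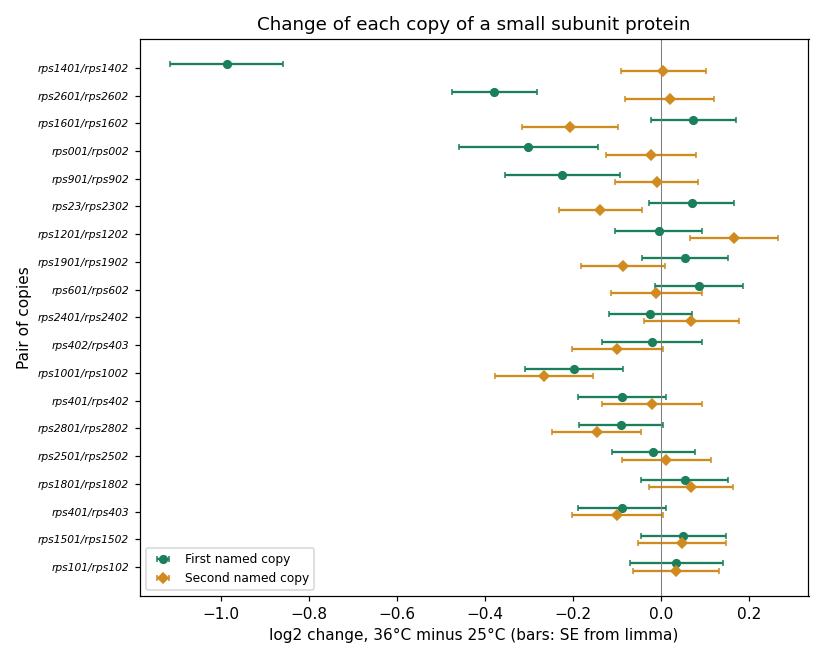
Log2 change, 36°C minus 25°C (horizontal), of both copies in each of the 19 pairs, with green circles for the first named copy, orange diamonds for the second, and bars for 1 standard error from limma on either side. The pairs are ordered by the size of the difference between copies, and the first copies of S14 and S26 at the top lie at -0.99 and -0.38 while their second copies lie near 0.

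The S14 copies differed most. *rps1402* (SPBC18H10.13) read 11886, 12313 and 11851 at 36°C, against 12246, 12076 and 11576 at 25°C, so that its temperatures overlapped (change 0.01, SE 0.10, limma adjusted p = 0.96). The log2 ratio of *rps1401* to *rps1402* was -1.48, -1.18 and -1.34 at 36°C, against -0.43, -0.36 and -0.24 at 25°C. The ratio was lower at 36°C by 0.99 (mean difference -0.99, exact permutation p = 0.10), which was the only difference among the 19 pairs above 0.5. It was -0.78 after quantile normalization.

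The S26 copies came next. *rps2602* (SPAC1805.11C) read 11704, 12603 and 12159 at 36°C, against 11991, 12550 and 11433 at 25°C (change 0.02, SE 0.10, limma adjusted p = 0.89). The log2 ratio of *rps2601* to *rps2602* was -0.15, -0.18 and -0.20 at 36°C, against 0.24, 0.13 and 0.31 at 25°C. The ratios of the temperatures did not overlap, with a mean difference of -0.40 (exact permutation p = 0.10).

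Smaller differences separated the copies of S16, S0, S9 and S23, in none of which a copy passed the main limma test. With the trend and robust options *rps1602* (limma adjusted p = 0.017) and *rps2302* (limma adjusted p = 0.014) were called lower. For S16, whose tail reaches the tRNA in the peptidyl site, *rps1602* read 11246, 11619 and 12869 at 36°C, against 13147, 14253 and 13779 at 25°C, below on every array. *rps1601* read 11585, 11517 and 11231 at 36°C, against 11076, 11059 and 10489 at 25°C, above on every array. On the deposited scale the copies had changes of opposite sign that did not pass the main test, whereas after median centring both were called higher (0.84 and 0.56). The ratio does not depend on a factor common to the array. The log2 ratio of *rps1601* to *rps1602* averaged -0.06 ± 0.13 at 36°C and -0.34 ± 0.08 at 25°C (SD, n = 3 each, difference 0.28, exact permutation p = 0.10). For S0, *rps002* read 10848, 12086 and 11720 at 36°C, against 11712, 12033 and 11408 at 25°C, overlapping where *rps001* did not. Their log2 ratio averaged -0.29 ± 0.19 at 36°C and -0.01 ± 0.03 at 25°C (SD, n = 3 each, difference -0.28, exact permutation p = 0.10). Without replicate 1 at 36°C the difference was -0.17.

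S9 and S23 both lie near the decoding centre and take part in the accuracy of translation. *rps901* read 8411, 10540 and 10361 at 36°C, against 10997, 11019 and 12073 at 25°C, and *rps902* read 13115, 13564 and 13170 at 36°C, against 13368, 13286 and 13449 at 25°C. The log2 ratio of the S9 copies averaged -0.45 ± 0.17 at 36°C and -0.24 ± 0.07 at 25°C (SD, n = 3 each, difference -0.21, exact permutation p = 0.10). Without replicate 1 at 36°C the difference was -0.12, as was the change of *rps901* (-0.22 with all arrays). Of the S9 copies only *rps901* was separated between the temperatures. For S23, *rps2302* read 12146, 12494 and 12243 at 36°C, against 13588, 13441 and 13528 at 25°C, and *rps23* read 14124, 15091 and 14011 at 36°C, against 13755, 13774 and 13627 at 25°C. The S23 copies had changes of opposite sign on the deposited scale (0.07 and -0.14). Neither passed the main test, and only *rps2302* passed with the trend and robust options. After median centring both were called higher (0.83 and 0.63). Their log2 ratio averaged 0.23 ± 0.04 at 36°C and 0.02 ± 0.01 at 25°C (SD, n = 3 each, difference 0.21, exact permutation p = 0.10).

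The other 3 pairs without overlap were those of S12 (*rps1201* over *rps1202*, difference -0.17), S19 (*rps1901* over *rps1902*, 0.14) and S28 (*rps2801* over *rps2802*, 0.05). Among the 9 separated pairs the first copy was relatively lower at 36°C in 5 and the second in 4, so the numbering of the copy did not go with the direction. In the 10 overlapping pairs the differences lay between -0.09 and 0.10. The closest copies were those of S15 and S1. *rps1501* and *rps1502* encode S15 of the head, and their log2 ratio was 0.01, 0.01 and 0.10 at 36°C, against 0.02, 0.06 and 0.04 at 25°C (difference 0.00, exact permutation p = 1.0). *rps101* and *rps102* encode S1 of the platform, and their log2 ratio was -0.20, -0.18 and -0.39 at 36°C, against -0.21, -0.24 and -0.31 at 25°C (difference 0.00, exact permutation p = 1.0). The 3 copies of S4 also overlapped in every pairing, with differences of -0.07, 0.01 and 0.08. Probe sets of close copies can share target sequence, and how far each reads its partner was not tested.

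**Figure D4:**
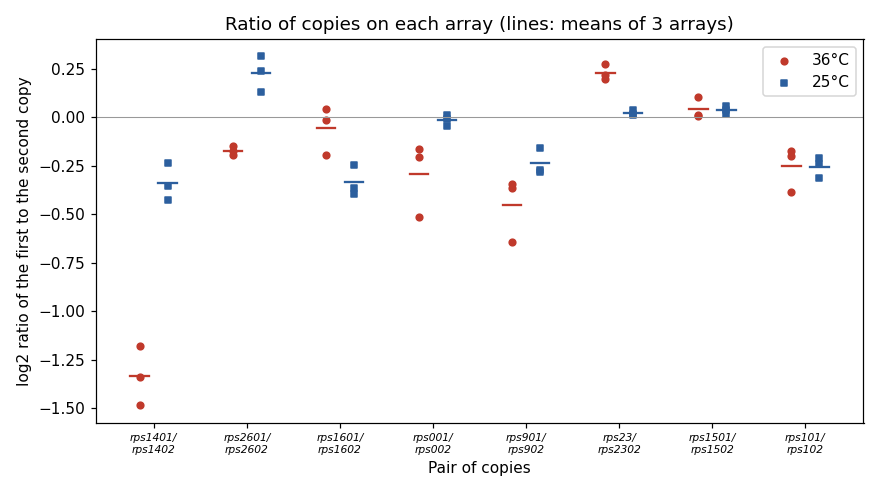
Log2 ratio of the first to the second copy (vertical) on each array for the 6 pairs of copies that differed most and, at the right, the 2 that differed least, with 36°C arrays as red circles, 25°C arrays as blue squares and lines for the means of 3 arrays. The ratio of *rps1401* to *rps1402* averaged -1.33 at 36°C and -0.34 at 25°C, and the other pairs lie far closer together.

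In 3 cases small subunit genes lie next to each other in the RefSeq gene order. *rps2* fell while its neighbour *rps20*, for S20 of the head, read 15253, 15558 and 14844 at 36°C, against 14439, 14663 and 13511 at 25°C, above on every array (change 0.10, SE 0.10, limma adjusted p = 0.42). *rps1402* lies beside *rps1601* (changes 0.01 and 0.07), and *rps29* beside *rps27* (changes 0.04 and 0.03). None of these 4 genes passed the test. Both probe sets that name *rps3001* and *rps3002* together were also flat, with log2 changes of 0.01 and -0.11.

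Genes for other proteins of the ribosome changed little on the deposited scale, and most measured genes for subunit assembly and translation initiation fell. Over all features 51.9% were lower and 12.1% higher on that scale. The assembly and initiation lists held 77 and 38 names. Of their 26 and 15 measured genes, 6 and 8 exceeded 10000 on at least 1 array. Among other features with mean signals of 1000 to 5000, 670 of 1252 were lower and 165 higher. At 100 to 1000, 635 of 871 were lower and 89 higher. The part of brightness in the contrast was not tested. *cpc2*, the scaffold protein of the subunit known as RACK1 in mammals, changed by -0.09, and *ubi3*, which encodes a ubiquitin fusion to a subunit protein, by 0.00, and neither passed. Of 67 large subunit ribosomal protein genes 9 fell, none was higher and 58 did not pass, with a median change of -0.02, and 66 of the 67 exceeded 10000 on at least 1 array. After quantile normalization 8 were lower and 2 higher, and after median centring 0 were lower and 59 higher. Of 26 measured genes listed for assembly of the small subunit, 20 fell, none was higher and 6 did not pass, with a median change of -1.36. On the quantile-normalized scale 17 were lower and 1 higher, and on the centred scale 15 lower and 4 higher. The largest decreases were those of *esf1* (-4.98), the GTPase gene *bms1* (-4.46) and *rrp12* (-3.85). *nep1*, which was on the list by name and is in these counts, encodes a NEDD8 protease in *S. pombe*. It did not pass on the deposited or the quantile-normalized scale. On the centred scale it was 1 of the 4 called higher (0.46, limma adjusted p = 0.015). Of 15 measured translation initiation factor genes 13 fell and none was higher (median change -1.47), led by *tif223* (-3.16), *tif471* (-2.71) and *tif452* (-2.53). The counts were 13 lower and 0 higher after quantile normalization, and 10 lower and 2 higher after median centring. Signals of *esf1* were 48.9, 36.9 and 62.3 at 36°C, against 1130, 1681 and 1870 at 25°C, a part of the scale far below that of the small subunit genes.

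Among 18 measured genes for TOR signalling, kinases and transcription factors with links to ribosomal protein genes, 6 fell, 3 were higher and 9 did not pass (median change -0.53), beside the 51.9% lower and 12.1% higher of all features. *tsc1* (-2.95), a negative regulator of TOR, *tor2* (-1.85), the growth-promoting TOR kinase, and *fkh2* (-1.79), a forkhead transcription factor, fell. *gad8* (1.12), a kinase downstream of TOR, *rap1* (1.05), which in *S. pombe* is a telomere protein, and *pop3* (0.63), a shared TOR subunit, were higher. This split depended on the scale, since 4 of the 18 were lower and 8 higher after quantile normalization and likewise after median centring.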

How the data were processed

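Total RNA was hybridised as biotinylated cRNA to GeneChip Yeast Genome 2.0 arrays, and the deposited values are linear signal intensities that the authors computed with GCOS at default settings with global scaling. The scaling target is not given in the sources used here, and no detection calls were used. Probe sets were named from the platform annotation table (10928 probe sets, of which 2917 name 1 *S. pombe* gene, 20 several, and 5177 none). The gene identifiers of all 46 small subunit probe sets matched RefSeq (assembly ASM294v3), which served for names and neighbours only. Log2 signals, with values under 1 set to 1, were averaged per gene and tested with limma's lmFit and eBayes (limma 3.58.1, R 4.3.3; two-sided, temperature only, Benjamini-Hochberg over 2919 features, 0.05). Copy ratios were tested by exact permutation of the arrays. Python 3.11.15, pandas 2.3.3, numpy 2.4.6, scipy 1.17.1 and matplotlib 3.10.9 were used, and the limma step was tested on simulated data. Precision is limited by the number of arrays.

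The members and the gene lists were chosen with earlier results of these data known. Genes named with values were those that passed the test, the 3 with the highest and the 3 with the lowest mean signal, the copies of the 6 pairs that differed most and the 2 that differed least, *rae1*, and the 3 most changed of each list. *rps1002*, *rps1202*, *rps2501*, *rps7*, *rps20*, *rps27*, *rps29*, *nep1*, *cpc2*, *ubi3* and the *rap1*, *pop3* and *gad8* increases were added after their values were seen. Positions in the subunit are background from its known structure. After subtraction of each temperature's mean, arrays of replicates 1, 2 and 3 correlated across temperatures at 0.54, 0.45 and 0.43 over 2862 features above background, which is over 0.1 for every pair. The tests reported are unpaired, and the pairing enters only the replicate block and the sign-flip test of the copy ratios. Alternatives were quantile normalization, median centring, spike-in scaling, 32 added to each signal, dim, lower-specificity or unnamed probe sets handled otherwise, eBayes with trend and robust, the replicate block and each array left out. A block for the label series was chosen after seeing the data, since the labels of replicate 1 follow another pattern than those of replicates 2 and 3.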

Additional observations from a re-analysis of the deposited data

How the results depend on the processing

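The calls of 4 lower and 0 higher small subunit genes kept the same counts under quantile normalization, spike-in scaling, 32 added to each signal, and with dim, lower-specificity or unnamed probe sets handled otherwise. Leaving out 1 array at a time gave 3 to 4 lower and 0 higher. The replicate block gave 5 lower, with *rps1002* added to the same 4, and changed no other call, and the block for the label series also gave 5. Trend and robust gave 9 lower, the same 4 among them, and 2 higher. Median centring gave 0 lower and 41 higher. The median change of -0.01 was 0.0397 after quantile normalization, 0.75 after median centring and -0.0651 after spike-in scaling, and -0.0161 to 0.0204 with 1 array left out. Under median centring, which adds 0.76 to every change, the sign turned for 22 of the 24 genes with negative changes, all but *rps1401* and *rps2202*. Among the genes chosen for naming these were *rps2* (0.21), *rps2601* (0.38), *rps3002* (0.68), *rps403* (0.66), *rps1602* (0.56), *rps001* (0.46), *rps002* (0.74), *rps901* (0.54), *rps902* (0.75) and *rps2302* (0.63). The 9 pairs of copies without overlap were 9 to 14 with 1 array left out, the 14 without replicate 3 at 36°C, 10 after quantile normalization, and 11 by the sign within replicate numbers in the replicate block. Neither leaving out an array nor the sign within replicate numbers can take a separated pair out of the count. Those counts could therefore only stay at 9 or rise, and are no check of the 9. The matching shares over all pairs of features were not computed. The 44 genes above 10000 became 0 at a limit of 20000, which no probe set of any kind reached. Apart from the constant that centring adds, the higher limit and the direction open to the pair counts, the cause of these differences was not tested. Signals lie far above background, so background does not limit these results, and whether signals near the highest on the array followed mRNA level in proportion was not tested. Replicate 3 at 36°C correlated more closely with replicate 2 at 25°C (0.48) than with its own number.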
